A study of Homo sapiens with 2 samples.

Results

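NF-kB feedback genes and chemokines were compared between 2 libraries of HuH6, a human hepatoblastoma cell line. The 10 genes were TNFAIP3, NFKBIA, NFKB2, RELB, BIRC3, CCL20, CXCL1, CXCL5, CXCL8 and LCN2, taken by symbol from a table of 62571 rows. Each had exactly 1 row of its own. HuH6_WT was the unedited parental line and PIM3_KO was HuH6 carrying a CRISPR/Cas9 knockout of PIM3, a serine/threonine kinase gene. Both were labelled untreated, and whether the edited cells were 1 clone or a pool is not given in the sources used here. Poly(A) RNA of each was sequenced in 1 library and deposited as FPKM, that is fragments counted per kilobase and scaled to the size of the library. With 1 library per group, no difference below has a replicate check, no p-value was computed, and effects of PIM3 loss cannot be told apart from other differences between the cultures.

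NF-kB is a family of dimeric transcription factors held in the cytoplasm by IkB proteins. Inflammatory cytokines and microbial products activate the IKK kinases, which trigger the destruction of IkB and free the dimers to enter the nucleus. Among the genes they switch on are their own inhibitors, so the response limits itself, and chemokines that call leukocytes into the tissue. A slower branch, driven by the kinase NIK, processes the NFKB2 precursor and works through RELB. In liver the pathway is known for protecting hepatocytes from death induced by TNF and for driving inflammatory and acute phase genes.

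Most of the 10 genes carry a match to the kappaB consensus, the 10-base sequence that NF-kB dimers recognise, close to the start of transcription. RefSeq windows of 300 bases (250 before to 50 after the start, GRCh38.p14) were found for 9 genes, all but RELB, and 8 of the 9 had at least 1 match on either strand. The same consensus was present in 13.3% of 27305 symbols with such a window, and this match is a description of the letters, not of binding. The 1 gene without a match was CXCL8, whose closest 10 bases differed from the consensus at 1 position, a likeness that 72.3% of all symbols reached. NFKB2 had windows at 3 starts, of which 2 held matches, 4 in all after merging, and only the first of the 4 is shown. The sites are shown because a match is a feature of 8 of these genes that does not rest on their levels, which are given further on. Each line gives 30 bases, 5′ to 3′ on the gene's strand, with the matching bases in capitals (for CXCL8, the closest bases). Overlapping matches were merged.
TNFAIP3, first site, chr6:137867182-137867211, plus strand: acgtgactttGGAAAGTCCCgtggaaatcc
TNFAIP3, second site, chr6:137867194-137867223, plus strand: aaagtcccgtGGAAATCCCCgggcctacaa
NFKBIA, chr14:35404811-35404840, minus strand: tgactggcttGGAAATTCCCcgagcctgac
NFKB2, second start, chr10:102394462-102394491, plus strand: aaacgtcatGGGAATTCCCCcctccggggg
BIRC3, first site, chr11:102317275-102317304, plus strand: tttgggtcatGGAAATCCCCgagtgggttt
BIRC3, second site, chr11:102317339-102317368, plus strand: tattaccgctGGAGTTCCCCtaagtcctaa
CCL20, chr2:227813753-227813782, plus strand: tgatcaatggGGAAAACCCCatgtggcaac
CXCL1, chr4:73869305-73869334, plus strand: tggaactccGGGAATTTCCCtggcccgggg
CXCL5, chr4:73998748-73998777, minus strand: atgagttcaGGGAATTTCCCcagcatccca
CXCL8, chr4:73740467-73740496, plus strand: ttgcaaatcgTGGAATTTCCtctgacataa
LCN2, chr9:128149268-128149297, plus strand: cagcactccgGGAATGTCCCtcactctccc
The TNFAIP3 sites began at -67 and -55 from the start, those of BIRC3 at -199 and -135, those of NFKBIA, CCL20 and CXCL1 at -81, -79 and -79, that of CXCL5 at -91 and that of LCN2 at -175. CXCL1 and CXCL5 held the same 11 matching bases. The starts used for the sites are those of RefSeq, whereas the gene spans given further on are from GENCODE. The shown sites of TNFAIP3, NFKB2, CCL20, CXCL5 and LCN2 therefore fall inside those spans. The 250 bases before the start of NFKBIA (chr14:35404750-35404999, minus strand), with its single match in capitals, are given as an example of the surroundings.
NFKBIA: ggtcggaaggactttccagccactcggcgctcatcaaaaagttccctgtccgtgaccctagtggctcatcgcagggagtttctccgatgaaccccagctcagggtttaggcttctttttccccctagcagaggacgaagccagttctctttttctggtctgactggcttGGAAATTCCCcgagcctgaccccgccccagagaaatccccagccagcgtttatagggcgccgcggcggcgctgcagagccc

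The 10 genes did not differ in 1 direction. The chemokine gene CCL20 and LCN2, which encodes the siderophore-binding protein lipocalin-2, were the members furthest above in PIM3_KO, TNFAIP3 was the only member below (joined by NFKB2 when both libraries were scaled to the same total), and the inhibitor and subunit genes NFKBIA, NFKB2 and RELB were modestly above on the deposited scale. CXCL1 and CXCL5 were listed at 0 in both libraries. Of the 10, 6 had a mean of at least 1 FPKM over the libraries and are called measured. The other 4 (BIRC3, CXCL1, CXCL5 and CXCL8) were below that level. On the scale of FPKM + 1, 2 of the 6 were higher in PIM3_KO by 2-fold or more and 1 was lower by that much, and the median log2 ratio over these 6 was 0.57. The background over all 11253 measured genes was 6.89% higher and 4.59% lower by 2-fold or more, with a median of 0.01. LCN2 passed the level filter through PIM3_KO alone, where it was the higher, so its place among the measured genes is not independent of its difference.

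The scale matters for the modest differences. The FPKM columns summed to 787250 in HuH6_WT and 1086211 in PIM3_KO, so rescaling both to the same total (TPM) lowered every log2 ratio of an abundant gene by 0.46 and moved the median of all measured genes to -0.40. As deposited, 775 measured genes passed 2-fold upward and 516 downward, against 323 and 1622 under TPM. The length of the transcript matters too: the median log2 ratio was 0.58 over the 969 measured coding genes with the shortest transcripts but -0.25 over the 969 longest. CCL20 (800 bp) and LCN2 (848 bp) are short, whereas TNFAIP3 (4735 bp) is long. The targeted gene PIM3 had 34.2 FPKM in HuH6_WT and 14.0 FPKM in PIM3_KO, the lower value being in the library that carries the knockout label. Steps in the low values implied normalisation totals of about 28.3 M reads for HuH6_WT and 22.2 M for PIM3_KO. Read estimates made from them cover counting error only and are approximate for genes with several transcripts.

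**Figure D1:**
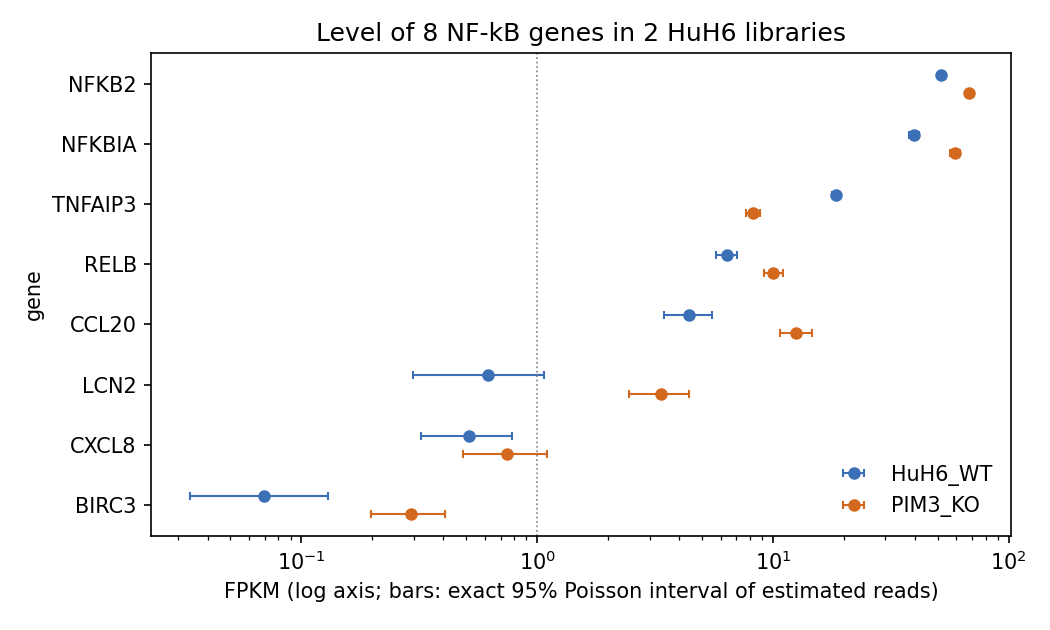
FPKM of the 8 members above 0 in HuH6_WT (blue) and PIM3_KO (orange) on a log axis, 1 library each, with exact 95% Poisson intervals of the estimated reads and a dotted line at 1 FPKM. TNFAIP3 is the only gene whose PIM3_KO point lies to the left, and CCL20, LCN2 and BIRC3 show the widest gaps to the right.

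TNFAIP3 encodes a ubiquitin-editing enzyme that removes activating ubiquitin chains from upstream signalling proteins and so shuts NF-kB signalling off. The gene (ENSG00000118503.14, chr6:137867188-137883312, plus strand, GRCh38) stood at 18.5 FPKM in HuH6_WT and 8.24 FPKM in PIM3_KO. Its level was thus 2.25-fold lower in PIM3_KO, with a ratio of 0.445, about 2382 and 830 estimated reads, and an exact 95% counting interval between 0.410 and 0.481. The log2 ratio was -1.08, and 3.66% of measured genes had a lower one. In rank, TNFAIP3 stood above 59.8% of measured genes in HuH6_WT and above 41.5% in PIM3_KO, a comparison that no common rescaling of a library can change. The log2 ratio was -1.52 under TPM and -0.88 after the correction for transcript length, which is under 2-fold. An annotated gene, AL357060.1, overlaps TNFAIP3 on the opposite strand, and how the counting treated strand is not known.

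NFKBIA encodes IkB-alpha, the inhibitor that is destroyed on activation and then made again under NF-kB control. It lies on chr14:35401511-35404749 (ENSG00000100906.10, minus strand) and reached 39.8 FPKM in HuH6_WT and 59.2 FPKM in PIM3_KO. The ratio was 1.49, with a counting interval of 1.39 to 1.60 and a log2 ratio of 0.56. Under TPM the log2 ratio was 0.11. NFKBIA was abundant in both libraries, above 76.9% of measured genes in HuH6_WT and 81.9% in PIM3_KO. Its ratio had the opposite sign to that of TNFAIP3.

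NFKB2 and RELB encode the subunits of the slower, NIK-driven branch, and both genes are themselves NF-kB targets. NFKB2 (ENSG00000077150.18, chr10:102394110-102402529, plus strand) was the most abundant member in both libraries, at 51.8 FPKM in HuH6_WT and 68.2 FPKM in PIM3_KO. Its ratio was 1.32 (counting interval 1.26 to 1.37), and its log2 ratio went from 0.39 as deposited to -0.07 under TPM, so no direction is given for it. RELB (ENSG00000104856.13, chr19:45001430-45038198, plus strand) measured 6.39 FPKM and 10.1 FPKM. On the log2 scale its ratio of 0.58 was the third highest of the members and became 0.17 under TPM. RELB stood above 33.9% of measured genes in HuH6_WT and above 46.2% in PIM3_KO.

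BIRC3 encodes a ubiquitin ligase of the inhibitor of apoptosis family that acts at TNF receptors and also restrains NIK. It lies on chr11:102317450-102339403 (ENSG00000023445.13, plus strand) and was near the lower end of detection, at 0.0694 FPKM in HuH6_WT and 0.291 FPKM in PIM3_KO. These levels amount to about 9.8 and 32.3 estimated reads and a ratio of 4.19 with a counting interval of 1.96 to 9.31. On the scale of FPKM + 1 the log2 ratio was 0.27, and 1.21 with a pseudocount of 0.1. Its close relative and neighbour BIRC2 was far more abundant and nearly equal, at 35.0 FPKM and 36.0 FPKM.

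CCL20 encodes a chemokine that attracts lymphocytes and dendritic cells through the receptor CCR6. The gene (ENSG00000115009.12, chr2:227805739-227817564, plus strand) had a level of 4.41 FPKM in HuH6_WT and 12.6 FPKM in PIM3_KO. The ratio was 2.85, with a counting interval of 2.16 to 3.80 and about 74.9 and 167.5 estimated reads. Its log2 ratio was 1.33, and 3.07% of measured genes had a higher one. CCL20 stood above 26.3% of measured genes in HuH6_WT and above 51.4% in PIM3_KO. The log2 ratio was 0.93 under TPM and 0.88 after the length correction, positive but under 2-fold in both. The receptor gene CCR6 was joined with FGFR1OP in 1 row, so its own level is not known.

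LCN2 had the highest ratio of the 6 measured members. Lipocalin-2 binds bacterial iron carriers and is made by neutrophils and by inflamed epithelia, hepatocytes among them. The gene (ENSG00000148346.11, chr9:128149071-128153455, plus strand) stood at 0.620 FPKM in HuH6_WT and 3.36 FPKM in PIM3_KO, about 11.4 and 48.4 estimated reads. The ratio was 5.42, with a counting interval of 2.85 to 11.9 and a log2 ratio of 1.43. Under TPM the log2 ratio was 1.20, and after the length correction 0.99, just under 2-fold. Of its receptors, SLC22A17 measured 1.32 FPKM and 1.53 FPKM, and the endocytic receptor LRP2 1.71 FPKM and 0.868 FPKM.

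The neutrophil-attracting chemokines among the members were low or listed at 0. CXCL8, the gene of interleukin-8 (ENSG00000169429.10, chr4:73740506-73743716, plus strand), reached 0.513 FPKM in HuH6_WT and 0.748 FPKM in PIM3_KO. The counting interval of its ratio, 0.784 to 2.7, included 1, so a difference was not detectable at this depth. CXCL1 (ENSG00000163739.4, chr4:73869393-73871242, plus strand) and CXCL5 (ENSG00000163735.6, chr4:73995642-73998779, minus strand) were listed at 0 in both libraries, where 3 reads would amount to 0.118 and 0.151 FPKM for CXCL1 and 0.0453 and 0.0577 FPKM for CXCL5. Their relatives CXCL3, CXCL6 and PPBP were also listed at 0, and CXCL2 measured 0.771 FPKM and 1.43 FPKM. An exact 0 in such a table can be a failed estimate, although 0 of 66 ribosomal protein genes with a row of their own were listed at 0 in both libraries. That check covers 1 gene family only. Among pathway genes without a single row of their own, NFKBIB, RNF31, TAP1 and PSMB9 were listed at 0 in every row that holds them. The chemokine receptor genes CXCR1 and CXCR2 were at 0 and at most 0.220 FPKM.

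**Figure D2:**
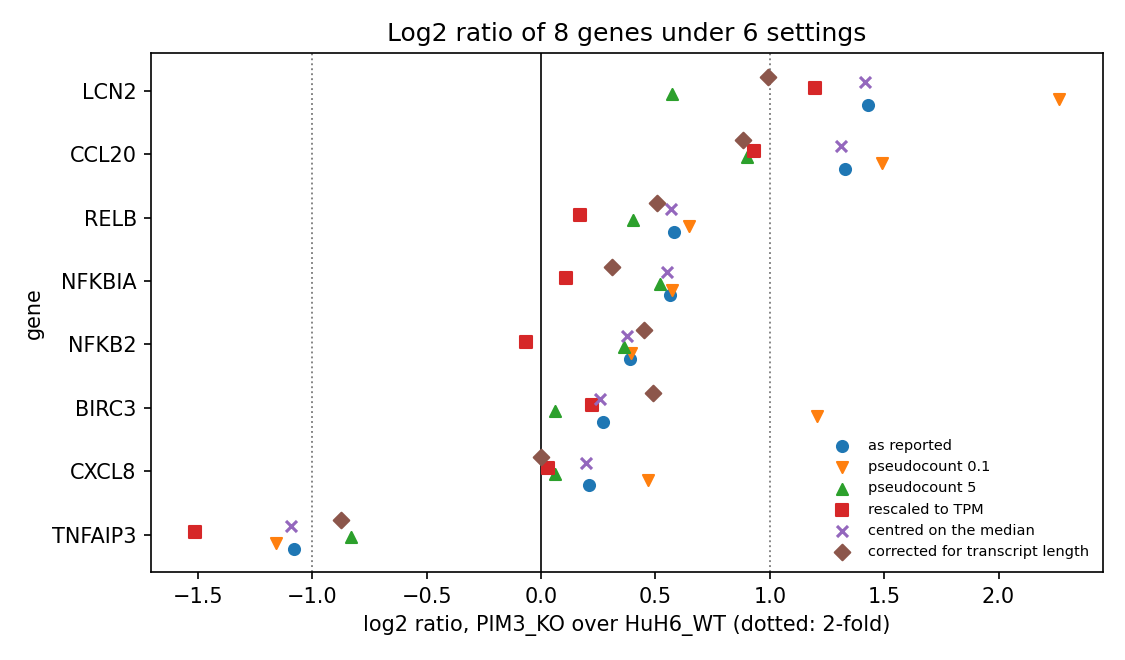
Log2 ratio of PIM3_KO over HuH6_WT for the 8 members above 0 under 6 settings of pseudocount, scaling and length correction, with dotted lines at 2-fold. TNFAIP3 lies below 0 and CCL20, LCN2, BIRC3, RELB and NFKBIA above 0 under all 6, while NFKB2 crosses 0 under TPM and CXCL8 lies on the line of equality after the length correction.

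The order of the members by FPKM changed in 1 respect. In HuH6_WT it ran NFKB2, NFKBIA, TNFAIP3, RELB, CCL20, LCN2, CXCL8, BIRC3. In PIM3_KO, CCL20 moved from place 5 to place 3 and TNFAIP3 from place 3 to place 5, with the other members in the same places. Among neighbours in this order, the counting intervals overlapped for LCN2 with CXCL8 in HuH6_WT and for CCL20 with RELB in PIM3_KO, so these pairs are not ordered beyond counting error.

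Ratios between 2 genes within a library do not depend on how the library is scaled, and pairs for this were chosen after the values were seen. TNFAIP3 amounted to 0.466 of the NFKBIA level in HuH6_WT and 0.139 in PIM3_KO, a 3.35-fold lower ratio (counting interval 3.02 to 3.73). The CCL20 level relative to NFKBIA was 0.111 and 0.212, a ratio 1.91-fold higher in PIM3_KO (1.44 to 2.57). RELB kept close to NFKBIA, at 0.161 and 0.170 of its level, and the interval of 0.906 to 1.23 for the ratio of these included 1. RELB relative to RELA, the main activating subunit of the rapid branch, was 0.316 in HuH6_WT and 0.724 in PIM3_KO, 2.29-fold higher (1.94 to 2.7). NFKBIA relative to RELA was 1.97 and 4.26, 2.17-fold higher (1.93 to 2.42). These ratios remove a common scale but not the relation with transcript length.

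**Figure D3:**
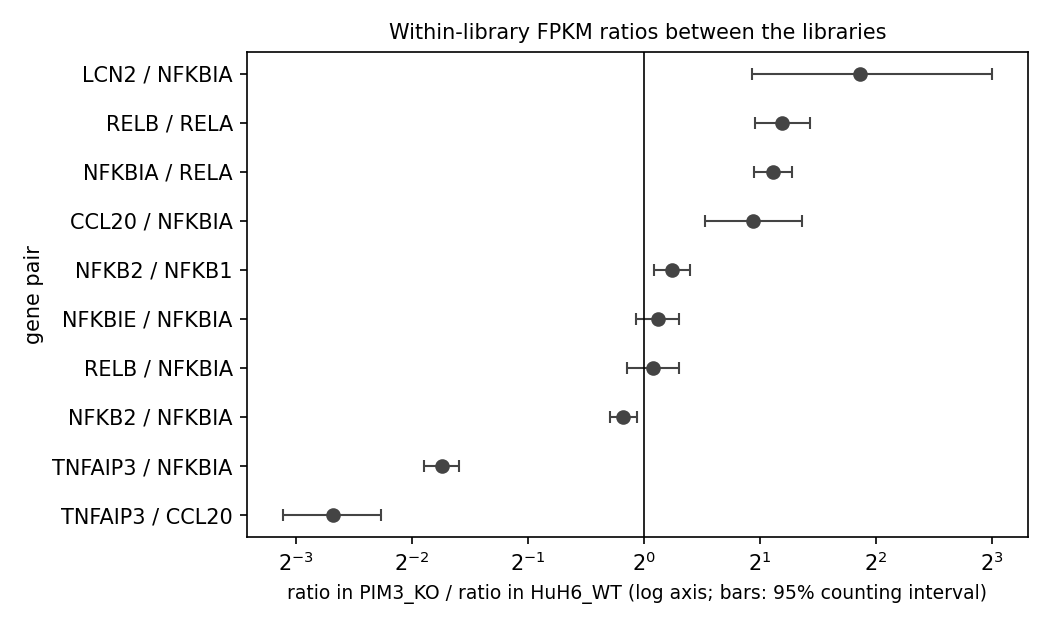
Within-library FPKM ratio of 10 gene pairs in PIM3_KO divided by that in HuH6_WT on a log axis, with 95% conditional intervals that cover counting error only. Ratios with TNFAIP3 as the numerator lie at 0.298 and 0.156, and RELB / NFKBIA and NFKBIE / NFKBIA have intervals that include 1.

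On the deposited scale the rest of the pathway was close to even. Lists of subunits, inhibitors, kinases, adaptors, receptors, ligands, chemokines and other targets held 149 genes besides the 10, of which 121 had a row of their own and 72 were measured. Of these 72, 3 passed 2-fold upward and 1 downward, or 4.17% and 1.39%, beside 6.89% and 4.59% over all measured genes. With so few genes, these shares are not read as a difference from the background, and the comparison changed with the setting. After the length correction 4 passed upward, beside 548 of all genes, and the upward share was then not below that of all genes. Under TPM 2 of the 72 passed upward and 12 downward, beside 323 and 1622 of all 11253 measured genes, and the downward share was then not below that of all genes. Positive ratios were held by 36 and negative ones by 36, with a median log2 ratio of 0.01, or -0.43 under TPM, close to the medians of all measured genes on the same scales.

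Among the subunits, the members RELB and NFKB2 were the highest and RELA the lowest. RELA had a level of 20.2 FPKM in HuH6_WT and 13.9 FPKM in PIM3_KO. Its log2 ratio was -0.51. NFKB1, whose product pairs with RELA, measured 7.80 FPKM and 8.68 FPKM, and REL 1.77 FPKM and 1.52 FPKM. None of the 5 subunit genes was 2-fold apart, and their median was 0.14, or -0.28 under TPM. Of the 4 measured inhibitor genes, NFKBIE, a second classical IkB, measured 8.92 FPKM and 14.4 FPKM, close to NFKBIA in ratio. NFKBID, an atypical IkB that acts in the nucleus, measured 1.64 FPKM and 0.472 FPKM, and BCL3, another nuclear IkB, 8.39 FPKM and 9.39 FPKM. The median of these 4 was 0.35, or -0.08 under TPM. It includes NFKBID, which passed the level filter through HuH6_WT alone.

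Of the signalling proteins above the subunits, kinases had a negative median under each setting, close to 0 after the length correction. The median of adaptors changed sign between settings. Of 11 measured kinases 4 had positive and 7 negative ratios, with a median of -0.15 that came to -0.00024 after the length correction, and over all measured genes 51.0% of ratios were positive. The lowest were TBK1 at 10.1 FPKM and 5.59 FPKM and the IKK scaffold IKBKG at 6.38 FPKM and 3.67 FPKM. IRAK1, a kinase of the interleukin-1 and Toll-like receptors, measured 77.7 FPKM and 98.7 FPKM, and IKBKE 3.66 FPKM and 4.08 FPKM. Adaptors and ubiquitin ligases had a median of -0.05 over 14 measured genes, with 8 negative ratios, but 0.024 after the length correction and 0.040 among those with a mean of at least 5 FPKM. TAB1, a partner of the kinase TAK1, was the 1 at least 2-fold lower on the scale of FPKM + 1, at 23.2 FPKM and 10.7 FPKM. The related TAB2 (24.5 FPKM and 12.8 FPKM) and TAB3 (5.57 FPKM and 3.12 FPKM) were lower too, whereas MAP3K7, the gene of TAK1 itself, measured 10.9 FPKM and 11.3 FPKM. TRAF5 measured 5.26 FPKM and 2.17 FPKM. XIAP, another inhibitor of apoptosis, was the highest of this list at 10.8 FPKM and 20.7 FPKM, followed by TRADD at 6.49 FPKM and 8.98 FPKM.

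Negative regulators other than the IkB proteins did not follow TNFAIP3 as a group. Of 10 measured genes 5 had negative and 5 positive ratios, with a median of -0.05, and TNFAIP3 was the 1 at least 2-fold lower on the scale of FPKM + 1. CYLD, like TNFAIP3 a deubiquitinase of this pathway, measured 3.84 FPKM and 1.71 FPKM. In FPKM it was 2.24-fold lower, about as much as TNFAIP3, and its log2 ratio of -0.84 was smaller because adding 1 FPKM weighs more on a low gene. The deubiquitinase OTULIN was nearly equal at 13.9 FPKM and 14.5 FPKM, as was the TNFAIP3 partner TAX1BP1 at 142 FPKM and 144 FPKM. TANK measured 27.4 FPKM and 40.5 FPKM and TNIP2, a TNFAIP3-binding protein, 40.3 FPKM and 48.8 FPKM.

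Receptors and ligands were few. The death domain receptor gene TNFRSF1A, through which TNF activates NF-kB, stood at 48.3 FPKM in HuH6_WT and 43.3 FPKM in PIM3_KO. Of the 6 measured receptor genes none was 2-fold apart. TNFRSF12A at 76.7 FPKM and 85.5 FPKM and IL17RC at 6.92 FPKM and 7.22 FPKM were the highest in ratio, and IL17RA at 7.76 FPKM and 4.0 FPKM and IL1R1 at 2.04 FPKM and 1.60 FPKM the lowest. Of 8 ligand genes with a row of their own, IL18 was the 1 measured. This gene of a cytokine of the interleukin-1 family measured 4.18 FPKM and 12.1 FPKM, a ratio of 2.90 (counting interval 2.32 to 3.66) and a log2 ratio of 1.34. TNF was listed at 0 in each of several rows, so it is not described further.

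Chemokines other than the neutrophil-attracting group of CXCL1, CXCL2, CXCL3, CXCL5, CXCL6, CXCL8 and PPBP were mostly listed at 0. Of 25 such genes with a row of their own, CCL20 included, 15 were at 0 in both libraries and 6 were measured. Of these 6, 5 had positive ratios and 2 were at least 2-fold higher, namely the member CCL20 and CCL25. Over all measured genes 51.0% of ratios were positive and 6.89% of genes were at least 2-fold higher. The median of the 6 was 0.61, or 0.37 under TPM, but 0.12 over all genes of the list above 0 in at least 1 library. CXCL17, at 0.580 FPKM and 1.56 FPKM, passed that filter through PIM3_KO alone, so the count of positive ratios is partly set by the filter. CCL25, an attractant of gut-homing lymphocytes, measured 6.15 FPKM and 19.6 FPKM, a log2 ratio of 1.53, slightly above that of CCL20. CX3CL1, the membrane-bound chemokine fractalkine, went the other way at 6.96 FPKM and 3.94 FPKM, and CXCL16 was equal within counting error at 4.08 FPKM and 4.15 FPKM.

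Other NF-kB targets did not share a direction. Of 17 measured genes 9 had positive and 8 negative ratios, with a median of 0.05, or -0.39 under TPM. Complement C3, which hepatocytes also make without inflammation, was the 1 at least 2-fold higher, at 12.2 FPKM and 58.4 FPKM. TNFAIP2 measured 0.645 FPKM and 2.03 FPKM, and IL6 0.856 FPKM and 1.33 FPKM. Both passed the level filter through PIM3_KO alone, so the count of positive ratios is partly set by the filter. CSF1, a macrophage growth factor gene, was the lowest at 5.42 FPKM and 2.33 FPKM, followed by ZC3H12A, an RNase that degrades inflammatory transcripts, at 7.59 FPKM and 5.32 FPKM. The classical targets ICAM1 (17.9 FPKM and 21.6 FPKM) and SOD2 (47.6 FPKM and 45.5 FPKM) were within 2-fold. The ICAM1 ratio of 1.21 had a counting interval of 1.12 to 1.30, and SOD2 had no interval. Under TPM their log2 ratios were -0.18 and -0.52. SQSTM1 was listed at 0.422 FPKM and 0.974 FPKM although it is abundant in most cells, so a low value in this table need not mean little RNA.

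**Figure D4:**
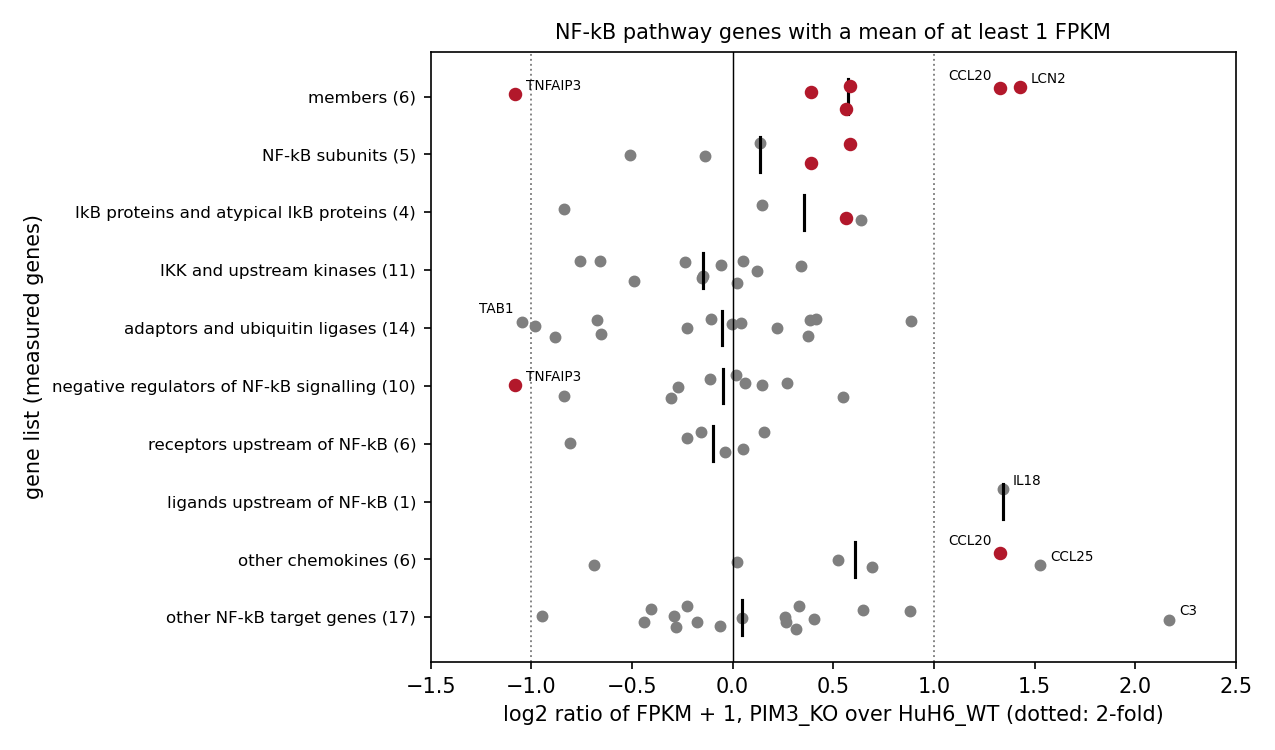
Log2 ratio of FPKM + 1 for the measured genes of 10 lists, with the 6 measured members in red in each list that holds them, other genes in grey, black bars at the medians and dotted lines at 2-fold. Names mark genes past 2-fold. CCL20, LCN2, IL18, CCL25 and C3 lie on the right and TNFAIP3 and TAB1 on the left, with the other genes within 2-fold.

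Position in the genome was examined through the 5 nearest measured coding genes on each side of every member. Around the 10 members there were 80 such neighbours, of which 7 passed 2-fold upward and 3 downward, with a median log2 ratio of 0.10. Over all measured genes the shares were 6.89% and 4.59%, so these counts are near the background. MMP1 and ALB, among those higher, passed the level filter through PIM3_KO alone, and SLC19A3, among those lower, through HuH6_WT alone. CXCL8, CXCL1 and CXCL5 lie in a row on chromosome 4 next to the albumin family, and share the same 10 neighbours. There AFP, at 309.4 kb from CXCL8, reached 1.19 FPKM in HuH6_WT and 70.1 FPKM in PIM3_KO and ALB, at 343.4 kb, 0.520 FPKM and 9.18 FPKM. The next gene, ANKRD17, measured 16.4 FPKM and 44.0 FPKM. On the other side of the cluster AREG, the gene of the growth factor amphiregulin, measured 49.8 FPKM and 72.0 FPKM. CXCL1 and CXCL5 were thus listed at 0 between AFP and AREG, both higher in PIM3_KO on the deposited scale. Under TPM the log2 ratio was 4.71 for AFP but 0.07 for AREG. Of the 10 shared neighbours, 8 had positive and 2 negative ratios as deposited, beside 51.0% positive ratios over all measured genes.

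Around TNFAIP3, 7 of the 10 neighbours had negative ratios, beside 5509 of all 11253 measured genes. The neighbours had a median of -0.43 and lay up to 1577.3 kb away. MAP7 was the 1 at least 2-fold lower, at 33.9 FPKM and 16.3 FPKM. The interferon gamma receptor gene IFNGR1, 647.7 kb away, measured 19.6 FPKM and 14.4 FPKM. REPS1 at 61.4 FPKM and 115.7 FPKM and HEBP2 at 52.9 FPKM and 84.4 FPKM went the other way. The part of any regional level in the TNFAIP3 value was not tested.

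CCL20 and LCN2 each had a higher ratio than all 10 of their neighbours. Their ratios were also above those of 96.9% and 97.5% of all measured genes. A place above 10 genes is largely set by that rank, and LCN2 passed the level filter through PIM3_KO alone. None of the 10 genes around CCL20 was at least 2-fold higher, and the closest, SLC19A3, a thiamine transporter gene at 87.7 kb, measured 3.43 FPKM and 0.678 FPKM. Around LCN2 the log2 ratios ran from -1.61 for FAM102A to 0.58, against 1.43 for LCN2. BIRC3 had the collagenase gene MMP1 at 480.7 kb, which measured 0.616 FPKM and 49.4 FPKM, while BIRC2 and YAP1 (58.7 FPKM and 38.1 FPKM) lie closer. NFKBIA, NFKB2 and RELB each had 1 neighbour at least 2-fold higher, namely BAZ1A (7.93 FPKM and 17.4 FPKM), FBXL15 (22.8 FPKM and 53.9 FPKM) and CBLC (10.5 FPKM and 22.1 FPKM). The neighbours of RELB had a median of 0.50, close to its own 0.58.

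**Figure D5:**
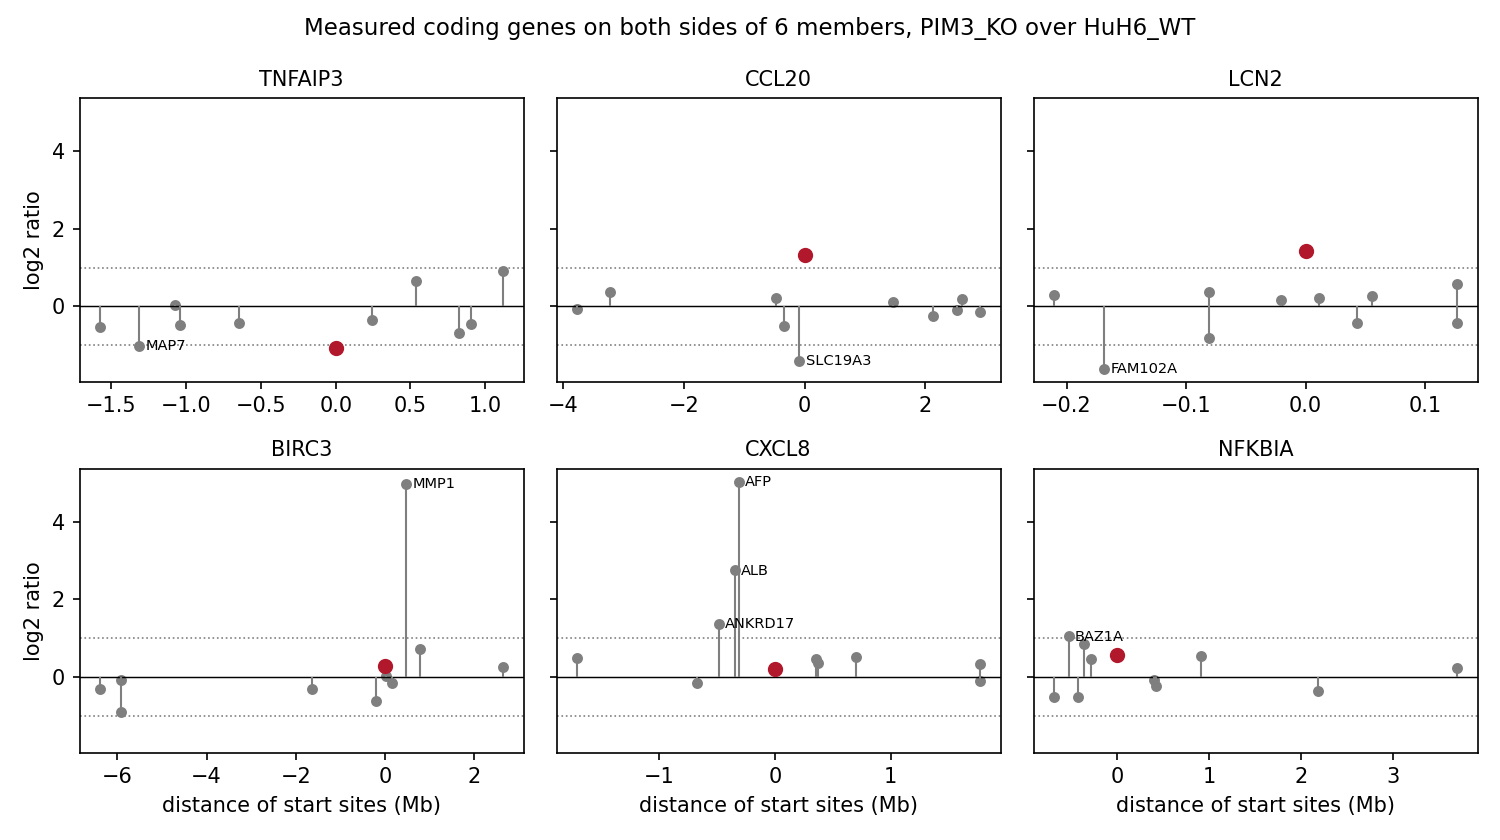
Log2 ratio of 6 members (red, at 0 Mb) and of the 5 nearest measured coding genes on each side (grey) against the distance between start sites in Mb, with dotted lines at 2-fold. AFP, ALB and ANKRD17 beside CXCL8 and MMP1 beside BIRC3 lie far above 0. CCL20 and LCN2 lie above all of their own neighbours, and also above most measured genes.

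The labelled cell type was checked against its markers. GPC3 at 694 FPKM and 607 FPKM, EPCAM at 797 FPKM and 1035 FPKM, KRT8 and KRT18 were abundant in both libraries, and DLK1 was listed at 0. Of the 10 measured hepatoblastoma and hepatocyte markers 4 were at least 2-fold higher in PIM3_KO, beside 6.89% of all measured genes. These were AFP and ALB, with the values given above, TTR, the gene of transthyretin, at 270.4 FPKM and 2232 FPKM, and APOA1, the main apolipoprotein of high-density lipoprotein, at 5201 FPKM and 12109 FPKM. ALB passed the level filter through PIM3_KO alone. The log2 ratio of APOA1 was 0.75 under TPM and 0.86 after the length correction, under 2-fold in both. The part of this marker difference between the cultures in the members' values was not tested. CCL20 and LCN2 are also made by leukocytes. Of 9 leukocyte markers with a row of their own 3 were measured, and the 9 summed to 7.71 FPKM in HuH6_WT and 14.4 FPKM in PIM3_KO. They included CD3G at 0.493 FPKM and 2.56 FPKM, measured through PIM3_KO alone, LYZ at 4.46 FPKM and 8.21 FPKM and CD14 at 1.51 FPKM and 2.27 FPKM. CSF1R went the other way at 0.740 FPKM and 0.262 FPKM (ratio 0.354, counting interval 0.211 to 0.576), and MS4A1, FCGR3A and NKG7 were listed at 0. The leukocyte marker PTPRC had more than 1 row and is outside these 9. It was listed at 0 in both libraries in 1 row, and at 0.00773 FPKM in HuH6_WT and 0 in PIM3_KO in another. In bulk RNA, fewer cells of a type and less RNA per cell cannot be told apart, and the part of leukocyte RNA in the CCL20 and LCN2 values was not tested. Of the 5 endothelial markers none was measured, and the 7 fibroblast and stellate cell markers with a row of their own summed to 10.3 FPKM and 10.7 FPKM.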

How the data were processed

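Per the labels' protocols, RNA was extracted on RNeasy columns, passed through repeated poly(A) selection, made into directional libraries and read as single ends. GRCh38, Cufflinks 2.2.1, STAR 2.7.3a and bcl2fastq 2.18.0.12 are named in the submitters' processing notes. The authors deposited FPKM values in 1 column per library, per the file header. Annotation release, strand setting and filters: not given in the sources used here.

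From these values, the 53139 symbols with 1 row and in no joined row were kept, of 62571 rows. Libraries were compared by the log2 ratio of FPKM + 1 (PIM3_KO over HuH6_WT), a scale on which low genes differ less than in FPKM. A gene was called measured from a mean of 1 FPKM upward. No test was possible with 1 library per group. Positions and lengths came from GENCODE release 29 (11068 of 11253 measured genes matched), using the longest principal transcript. Reads were estimated as FPKM times length less 200 bp, divided by the value of 1 read. That value was the step that made the most single-exon genes with under 20 reads whole (within 0.05; 96.6% and 96.7% of genes). The 95% intervals are exact binomial ones for ratios, Poisson ones for levels and conditional odds ratios for pairs, from scipy 1.17.1. Settings also tried were pseudocounts of 0.1 and 5, no level filter, a mean of at least 5 FPKM, TPM, centring on the median, and a lowess correction for log2 transcript length (fraction 0.3). Without a level filter, genes at 0 in both libraries were still left out. The code was tested on simulated data.

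The members and lists were chosen with earlier results of these data known. Named were all members, PIM3, in each list the genes past 2-fold and the highest and lowest ratios, and neighbours past 2-fold. Chosen after their values were seen were the gene pairs and TAB2, TAB3, MAP3K7, NFKB1, OTULIN, TAX1BP1, TNFRSF1A, ICAM1, SOD2, SQSTM1, IL6, BIRC2, YAP1, AREG, IFNGR1, REPS1, HEBP2, CXCL17, and the markers named. A further leukocyte marker is not reported here and is left out of the counts and sums.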

Additional observations from a re-analysis of the deposited data

How the results depend on the processing

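With 1 library per group, leaving out a library was impossible. No paired analysis was possible because each group has 1 library. As a limit, counting intervals say nothing of the spread between cultures, and LCN2, BIRC3 and CXCL8 rest on few reads.

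As deposited, 2 members were at least 2-fold higher and 1 lower. With a pseudocount of 5, or after the length correction, both counts were 0. By construction, 1 was higher with a mean of at least 5 FPKM, since LCN2 then leaves, and 1 was higher under TPM, where CCL20 is at 0.93. Of the single members, NFKB2 reversed under TPM (-0.068) and CXCL8 after the length correction (-0.0014). CCL20, LCN2, BIRC3, RELB and NFKBIA stayed positive and TNFAIP3 negative under every setting that gave a value.

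Other pathway genes past 2-fold numbered 3 higher and 1 lower. With a pseudocount of 0.1 they numbered 5 and 5. The lower count was 0 with a pseudocount of 5 and 12 under TPM. Over all genes, a pseudocount of 5 gave 399 higher and 172 lower, TPM 323 and 1622, and a pseudocount of 0.1 gave 812 lower.

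Median log2 ratios under TPM were 0.14 for the members, -0.43 for the other pathway genes, -0.28 for subunits, -0.082 for IkB proteins, -0.55 for kinases, -0.48 for adaptors, -0.51 for negative regulators, -0.52 for receptors and -0.39 for other targets. The median of the other pathway genes was also -0.0068 without a level filter and when centred, and -0.00024 after the length correction. The length correction gave 0.30 for subunits, 0.16 for IkB proteins, -0.00024 for kinases, 0.024 for adaptors and 0.27 for other chemokines. A mean of at least 5 FPKM gave 0.26 for subunits, 0.56 for IkB proteins, 0.040 for adaptors, 0.018 for negative regulators and 1.33 for other chemokines. The chemokine median was 1.06 and 0.22 with pseudocounts of 0.1 and 5, and 0.12 without a level filter, where that of other targets was 0.21. Beyond scaling, the cause of these shifts was not tested.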
